A study of Rattus norvegicus with 56 samples.

Results

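The comparison described here set rat hippocampal neuron cultures that had received 1 Hz repetitive transcranial magnetic stimulation (rTMS) against sham cultures, both sampled 24 h after the end of the stimulation. It rested on 6 of the 56 arrays of the study, 3 for 1 Hz at 24 h and 3 for sham at 24 h, which were chosen by their labels for treatment and hour. The cultures came from hippocampi of embryonic (E18) Sprague-Dawley rats, were dissociated, and were grown in Neurobasal medium with the B27 supplement, so that every group shared strain, age, tissue and medium. For 1 Hz stimulation the dish sat centred on an inverted coil inside an incubator and received evenly spaced pulses in repeated blocks. For sham the dish stood in the incubator while the coil lay at a distance. Intermittent theta burst stimulation (iTBS), which delivers short bursts, was the other protocol of the study and shared the same sham arrays. Each RNA sample was labelled with Cy3 and read on an Agilent rat expression array of its own.

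In rTMS a changing magnetic field induces electric current in nearby cells. Slow, evenly spaced pulses are used in patients to lower the excitability of cortex, whereas patterned bursts are used to raise it. Neurons that fire strongly switch on immediate early genes such as Fos, Arc, Egr1 and Npas4 within minutes, and these transcripts decay within hours. A day later, slower programs can be visible in RNA, among them those for receptors, ion channels, synaptic scaffolds, ribosomes and the mitochondrial respiratory chain, which carry excitability, protein synthesis and energy supply in a neuron. Hippocampal cultures of this kind also hold astrocytes and cells of the oligodendrocyte lineage.

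The neuronal label was checked first. Tubb3, Map2, Stmn2, Snap25 and Rbfox3, which mark neurons, were well above background on all 6 arrays, at levels between 5.05 and 9.20. A level here is the log2 signal of a probe, scaled so that the mean of each array is 0 and the arrays have the same spread. Astrocyte genes (Aqp4, Slc1a3) and oligodendrocyte lineage genes (Mbp, Pdgfra) were also well above background on all 6 arrays. Of the microglia markers, Cx3cr1 and Itgam were above background on all 6 arrays, Aif1 on 4 and Csf1r on 1. Of the endothelial markers, Pecam1 was above background on all 6 arrays and Cldn5 on none. RNA was taken from whole cultures, so fewer cells of a type and less RNA per cell cannot be told apart.

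Arrays differed in brightness and in the series of sample numbers to which they belonged. The share of spots well above background was 69.5%, 72.0% and 73.9% on the sham arrays (replicates 1 to 3) and 75.01%, 73.9% and 81.8% on the 1 Hz arrays, the last being the highest of 55 usable arrays. The 75th percentile of the processed signal was 2619, 4171 and 5470 in sham and 5637, 4730 and 9939 after 1 Hz. By the sample numbers in the labels, replicates 2 and 3 of both groups came from the same series (here called C and D), while replicate 1 came from series B in sham and from series A after 1 Hz. The C arrays of the 2 groups correlated at 0.992 and the D arrays at 0.989 over all probes, and the A array correlated with the B array at 0.972.

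At 24 h after 1 Hz no single gene passed the test. Genes of the cytosolic ribosome read lower in 76 of 76 measured cases, by a median of −0.51 on the log2 scale. Respiratory chain genes read lower in 70 of 75 cases, by a median of −0.34. These medians were −0.32 and −0.22 with 75th percentile scaling. They were −0.03 and −0.05 after quantile normalization, which gives the arrays the same distribution of signals. Of all 1078 probes with a mean level over 8, 1040 read lower (median −0.42). Potassium channel genes read higher in 50 of 57 cases, by a median of +0.18, which was +0.05 within series C. Of all probes at levels of 0 to 2, 4292 of 6221 read higher (median +0.14). The immediate early gene Fos differed by +0.44 within series C and by +0.48 within series D, while the arrays of these series lay much farther apart from each other.

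By the numbers, limma gave a Benjamini-Hochberg adjusted p under 0.05 for 0 of 35694 probes (0%), and the smallest adjusted p was 0.165. At an unadjusted p under 0.05 there were 418 probes that were higher after 1 Hz (1.17% of those tested) and 399 that were lower (1.12%), 817 in all (5% of the probes would be 1785). That split moved with the scaling, since 103 of 408 were higher with 75th percentile scaling, 170 of 453 after normexp background correction with quantile normalization, and 509 of 758 in the z-scores as deposited. The 3 arrays of 1 Hz lay above the 3 sham arrays for 1480 probes (4.15%) and below them for 910 (2.55%), counts that were 647 and 1080 with 75th percentile scaling and 1646 and 556 in the deposited z-scores. For the typical probe the SE of the difference was 0.397 on the log2 scale, and it was 0.310 for the 21264 probes with a mean level over 0. The low number of arrays limits the precision of every value given here, and no label says whether replicates came from separate cultures, so p-values measure only the spread between these samples.

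The change at 24 h was also compared with the mean of the changes at the other 4 times (0 to 48 h). In that test 0 of 35694 probes had an adjusted p under 0.05 (0%), the smallest being 0.468, and 950 had an unadjusted p under 0.05. No gene can therefore be called particular to the 24 h time point.

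What the arrays did show was a tilt along brightness. The brightest probes, among them those of ribosomal proteins, read lower after 1 Hz and many fainter ones read slightly higher. Probes with a mean level over 8 numbered 1078, and of these 38 were higher and 1040 lower, with a median difference of −0.42. For probes between −4 and −2 the median was +0.26, with 4263 of 6199 higher. Over all tested probes the median was +0.05. The median level of the brightest probes was 9.42, 9.08 and 8.77 on the sham arrays and 8.79, 8.85 and 8.49 on the 1 Hz arrays, so that the groups overlapped. Within a series the median difference of these probes was −0.23 in C and −0.37 in D. When arrays were given the same distribution of signals by quantile normalization, the median of the brightest probes was −0.02, and when they were scaled to the 75th percentile it was −0.26. A value near 0 after quantile normalization follows from giving the arrays the same distribution, so it cannot decide whether the bright transcripts were lower. With 75th percentile scaling 116 of the 1078 probes were higher. The size of the tilt differed between scalings, and the part that the brightness of the arrays plays in it was not tested.

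**Figure D1:**
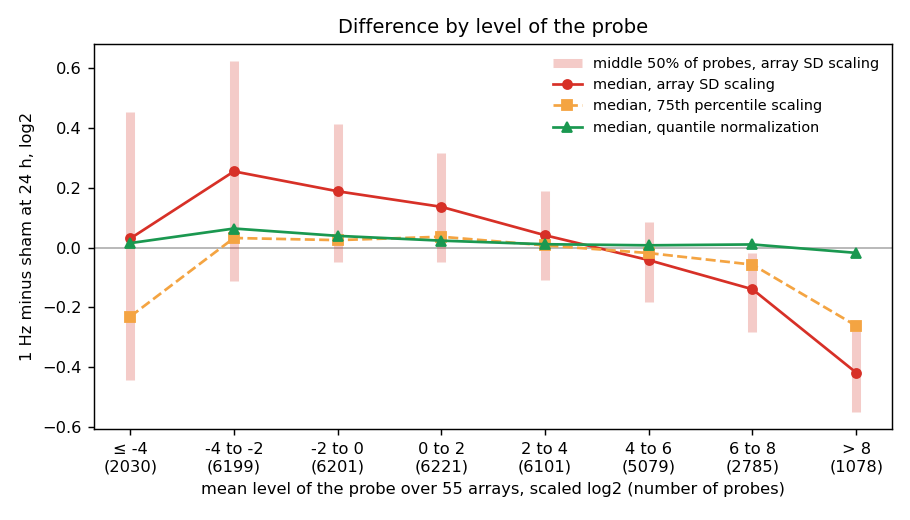
Median difference of 1 Hz minus sham at 24 h (vertical axis, log2) for probes grouped by mean level over 55 arrays (horizontal axis, scaled log2, with the number of probes in each group) under 3 scalings, with bars for the middle 50% of probes under the main one. The median went from +0.26 at levels of −4 to −2 to −0.42 at levels over 8 when arrays were scaled by their SD. With 75th percentile scaling it was −0.26 at levels over 8. It stayed near 0 after quantile normalization, which gives the arrays the same distribution of signals.

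Ribosomal protein genes followed this tilt. All 76 measured genes of the cytosolic ribosome, which makes the proteins of the cell, were lower after 1 Hz, by a median of −0.51, and each of the 76 was lower both within series C (median −0.34) and within series D (−0.44). Of these genes, 17 had an unadjusted p under 0.05 beside 1.12% of all probes, 8 lay below sham on every array beside 2.55%, and none passed. The background of bright probes was higher than that of all probes. Of 967 other probes with a level over 8, neither ribosomal nor of the respiratory chain, 138 had such a p on the lower side. Of the same 967, 157 lay below sham on every array. Their median level was 8.80, beside 10.02 for the ribosomal genes over 8, so the sets were not matched in level. The median level of the list was 10.70, 10.40 and 9.91 on the sham arrays and 9.96, 10.09 and 9.46 on the 1 Hz arrays. The D array of sham was thus lower than the A and C arrays after 1 Hz, and the groups overlapped. On the 14 sham arrays of the other times the list ranged from 9.33 to 10.36, so that 2 of the sham arrays of 24 h stood above all of them. In the median, too, the other bright probes were close. The 73 ribosomal genes with a level over 8 had a median of −0.52, beside −0.41 for the 967, of which 930 were lower. With 75th percentile scaling the ribosomal median was −0.32, with 0 of the 76 genes higher. After quantile normalization, which moves the bright probes as a whole toward 0, it was −0.03, with 31 of the 76 genes higher. The median difference of the list from sham was +0.35 right after 1 Hz, +0.27 after 2 h, −0.13 after 8 h and −0.14 after 48 h. iTBS at 24 h, against the same sham arrays, gave −0.32.

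Rpl10, a protein of the large subunit near the site of peptide bond formation, had the smallest p among them. Its level was 9.71, 9.29 and 9.52 in sham and 8.77, 9.01 and 8.86 after 1 Hz. Every 1 Hz array was below every sham array, with a difference of −0.63 ± 0.20 (SE, n = 3 per group; limma adjusted p = 1.00). A second Rpl10 probe differed by −0.43. Fau, whose product is a fusion of a ubiquitin-like protein and the small subunit protein eS30, was at 9.88, 9.52 and 9.58 in sham and at 8.91, 9.19 and 9.02 after 1 Hz, again without overlap. It differed by −0.62 ± 0.20, and by −0.61 on its second probe. Rpl27a, another protein of the large subunit, was at 10.77, 10.44 and 10.25 in sham and at 9.93, 10.10 and 9.59 after 1 Hz. Its difference was −0.61 ± 0.22 and its groups did not overlap, but 2 further Rpl27a probes gave −0.36 and −0.30. With quantile normalization the differences of the 3 probes with the smallest p were −0.21, −0.17 and −0.12. Before any scaling, Rpl10 had 38777, 53762 and 88968 intensity units in sham and 54501, 55239 and 111648 after 1 Hz. Each 1 Hz array was brighter as a whole than the sham array of the same number. Unscaled signals therefore cannot show a direction for single genes.

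Transcripts of the translation machinery commonly begin with a run of pyrimidines (C and T), the terminal oligopyrimidine tract through which growth signals regulate their translation. The stretches around the annotated start of these genes are shown because the 3 transcripts lead the lower side of the comparison and belong to that class. Each runs from 20 bases before the start to 10 bases from it on, on the plus strand of the RefSeq assembly GRCr8, with the longest run of C and T in capitals. Rpl10 lies at chrX:157205830-157205859, Fau at chr1:212779493-212779522 and Rpl27a at chr1:172974553-172974582.
Rpl10: atgcgcaggcgtgggagcgTCTCTTTTCCT
Fau: ggtgaggacgtgcgcgcccccgCTCCTTCC
Rpl27a: cctcgcgagacttggtgggCTCCTCCCTCT
Within the stretches shown the runs were 11, 8 and 11 bases long. Each reached the last base shown, so the full runs may be longer. A run of at least 8 bases, a length chosen after the sequences were seen, stood in the 30-base window of 41 of the 60 ribosomal protein genes matched to a promoter (68.3%), in 8 of 66 respiratory chain genes (12.1%) and in 3313 of all 27457 promoters (12.1%). On the opposite strand it stood in 1 of the 60 ribosomal genes (1.67%) and in 12.9% of all promoters. These counts describe sequence only.

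**Figure D2:**
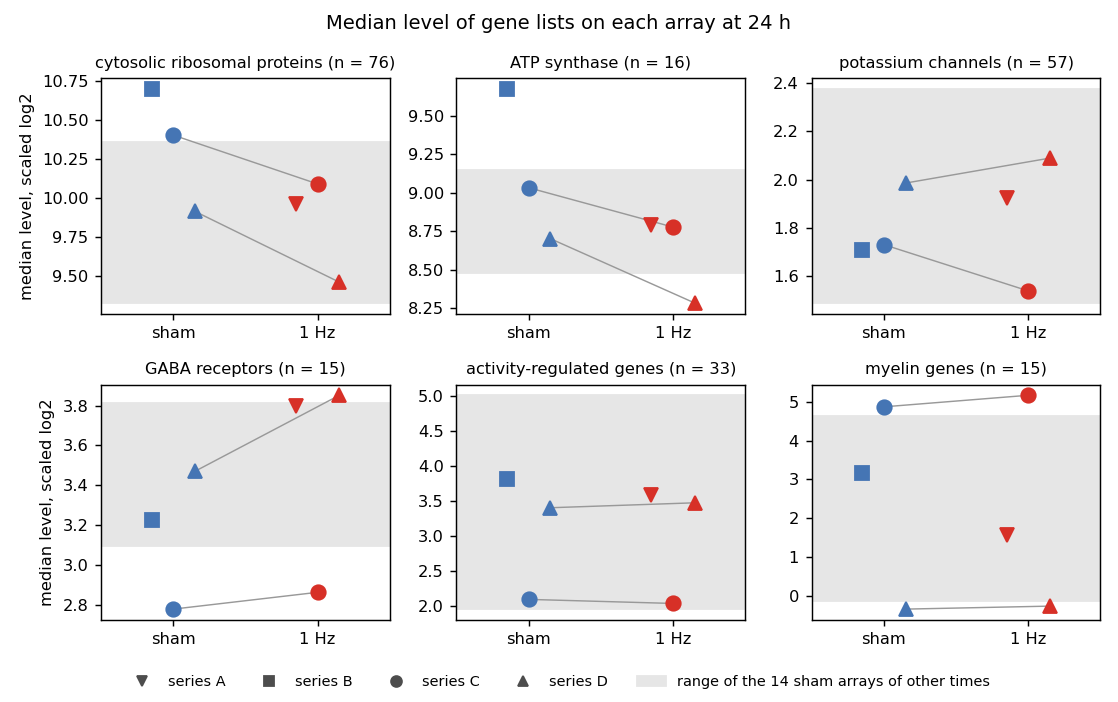
Median level (scaled log2) of 6 gene lists on each of the 3 sham and 3 1 Hz arrays of 24 h, with lines joining arrays of the same series of sample numbers and grey bands for the range of the 14 sham arrays of other times. Ribosomal protein and ATP synthase genes were lower after 1 Hz within both shared series, while the activity-regulated and myelin medians of the 2 treatments lay close to each other within a series.

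Genes of the mitochondrial respiratory chain, which couples electron transport to ATP production, read lower in the same manner. Of 75 measured genes of all complexes, 70 were lower and 5 higher, with a median of −0.34, and 64 were lower in both series. The 38 of them with a level over 8 had a median of −0.42 with 37 lower, beside −0.41 with 930 of 967 lower for the other bright probes. Complex I, which oxidizes NADH, had 31 of 33 genes lower (median −0.32), complex II 3 of 4 (−0.18), complex III 8 of 9 (−0.31), complex IV, which reduces oxygen, 13 of 13 (−0.34), and ATP synthase 15 of 16 (−0.45). For ATP synthase the array medians were 9.67, 9.03 and 8.70 in sham and 8.79, 8.78 and 8.28 after 1 Hz, with the sham array of series D below 2 of the 1 Hz arrays. Quantile normalization brought the medians to −0.04, −0.02, +0.02, −0.11 and −0.13 in the same order, so that complex III changed sign, and to −0.05 for all complexes. With 75th percentile scaling the median for all complexes was −0.22, with 6 of 75 genes higher.

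Atp5if1, the inhibitor that stops ATP synthase from running in reverse, was at 8.998, 8.62 and 8.61 in sham and at 8.36, 8.21 and 8.21 after 1 Hz. The groups did not overlap, and the difference was −0.49 ± 0.18. Cox4i1, the regulatory subunit of complex IV, was at 10.65, 10.15 and 9.85 in sham and 9.64, 9.94 and 9.03 after 1 Hz. Its sham array of series D lay below the 1 Hz array of series C, and its difference was −0.68 ± 0.29. Ndufs7, an iron-sulfur subunit of complex I, differed by −0.48 ± 0.21, with 6.90, 6.69 and 6.57 in sham against 6.01, 6.65 and 6.07 after 1 Hz. Sdha, the flavoprotein of complex II, was level, at 6.38, 6.36 and 6.37 in sham and 6.50, 6.45 and 6.36 after 1 Hz (difference +0.07 ± 0.18). Atp5f1b, the catalytic beta subunit of ATP synthase, was the member of its complex that was higher, by +0.09 ± 0.27.

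Other housekeeping groups were closer to 0 under the main scaling, at median levels between 5.47 and 7.03. Mitochondrial ribosomal proteins had a median of −0.16 with 52 of 65 lower, and proteasome subunits, which degrade tagged proteins, had −0.18 with 28 of 31 lower. For all probes the median was −0.04 at levels of 4 to 6 and −0.14 at levels of 6 to 8. After quantile normalization the 2 lists had −0.09 and −0.02, beside −0.03 for cytosolic ribosomal proteins. Psmb6, a catalytic proteasome subunit, was at 8.25, 7.77 and 7.82 in sham and 7.40, 7.69 and 7.34 after 1 Hz. All 3 arrays of 1 Hz were below sham, and the difference was −0.47 ± 0.17. Enzymes of glycolysis had a median of −0.18, with 14 of 20 lower, which turned to +0.08 after quantile normalization. Gapdh, the glycolytic enzyme often used as a reference gene, was at 9.27, 8.61 and 8.61 in sham and 7.96, 8.49 and 7.97 after 1 Hz, a difference of −0.69 ± 0.32 without overlap between the groups.

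The other genes that led the lower side were bright transcripts of varied function. Elob, the elongin B adaptor of ubiquitin ligases, was at 9.10, 8.46 and 8.32 in sham and 7.85, 8.16 and 7.67 after 1 Hz, a difference of −0.73 ± 0.25. Ubl5, a ubiquitin-like protein of the splicing machinery, was at 9.09, 8.33 and 8.52 in sham and 7.27, 8.26 and 7.42 after 1 Hz, a difference of −0.999 ± 0.37. Within series C and series D Elob differed by −0.30 and −0.65, and Ubl5 by −0.07 and −1.10. Eid1, an inhibitor of histone acetylation, differed by −0.91 ± 0.33, Rnasek, a V-ATPase-associated protein, by −0.67 ± 0.24, Higd2a, an assembly factor of the respiratory chain, by −0.63 ± 0.23, and Eif1, which helps the ribosome to select the start codon, by −0.48 ± 0.17. These were also smaller within series C than within series D. Eid1 had −0.22 and −0.91, Rnasek −0.15 and −0.65, Higd2a −0.33 and −0.57, and Eif1 −0.09 and −0.48. Quantile normalization left −0.43 for Elob, −0.72 for Ubl5, −0.59 for Eid1, −0.42 for Rnasek, −0.40 for Higd2a and −0.18 for Eif1, the same sign with smaller sizes.

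Dlk1, a Notch-related transmembrane protein of progenitors and endocrine cells, had the largest difference of the lower genes named. It was at 3.11, 0.33 and 0.07 in sham and at −1.79, −0.53 and −0.51 after 1 Hz, so that 1 sham array stood far above the others while the groups did not overlap. The difference was −2.11 ± 0.78, and −2.23 after quantile normalization, with a limma adjusted p of 1.00. Within the shared series it was smaller, since the C arrays were at 0.33 and −0.53 and the D arrays at 0.07 and −0.51.

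**Figure D3:**
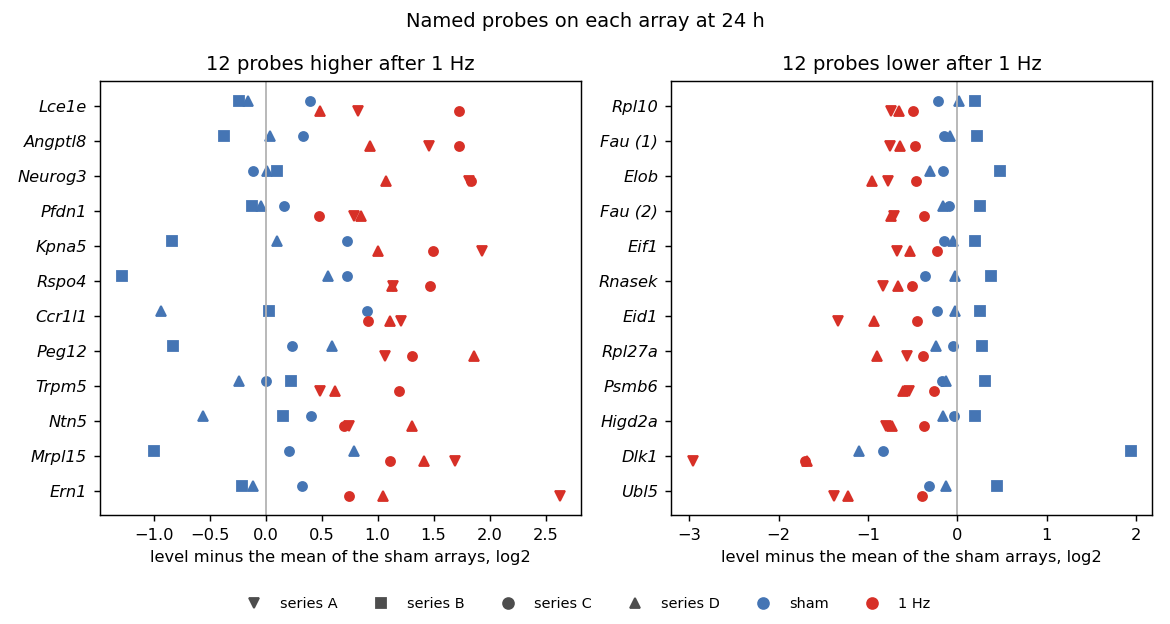
Level of each named probe on each array at 24 h minus the mean of the sham arrays (horizontal axis, log2), for the 12 probes on the higher side and the 12 on the lower side with the smallest p that met the naming rule. All 3 arrays of 1 Hz lay on 1 side of all 3 sham arrays for each probe, because the rule asked for this.

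On the higher side, the probes with the smallest p were all faint, with levels under 0. The naming rule asked for signal on every array of a group and for no overlap, so these traits were selected for. Of all probes at levels of −4 to −2, 4263 of 6199 were higher and 478 lay above sham on every array. At levels of −2 to 0 it was 4382 of 6201 and 345. Neurog3, a transcription factor of endocrine and neural progenitors, was at −4.48, −4.69 and −4.57 in sham and at −2.77, −2.74 and −3.50 after 1 Hz. No sham array was well above background. The difference of +1.58 ± 0.49 is given as at least 1.17-fold higher under the main scaling (measured mean against the detection limit of the array). Ern1, the IRE1 sensor of the unfolded protein response, was at −3.24, −2.70 and −3.14 in sham and at −0.40, −2.28 and −1.98 after 1 Hz. The A array was far above the other 2, no sham array was above background, and the mean after 1 Hz was at least 2.61-fold higher under the main scaling. Lce1e, a cornified envelope protein, was above background on all 6 arrays, at −1.98, −1.35 and −1.91 in sham and −0.92, −0.02 and −1.26 after 1 Hz, a difference of +1.01 ± 0.28. A fainter Lce1e probe differed by +0.03. Kpna5, a nuclear import receptor, differed by +1.48 ± 0.49, with 1 Hz at −0.77, −1.22 and −1.71 and sham at −3.54, −1.98 and −2.61.

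Further members of that side were Rspo4, a Wnt agonist (+1.24), Ccr1l1, a chemokine receptor-like protein (+1.08), and Ntn5, a netrin (+0.92). Trpm5, a calcium-activated cation channel, differed by +0.76 (at least 1.62-fold under the main scaling), and by +0.59 after quantile normalization. For 4 genes a second, brighter probe was also measured. The faint probes of Angptl8 (a hormone of lipid metabolism), the imprinted gene Peg12 and the mitochondrial ribosomal gene Mrpl15 were not well above background on any sham array. Under the main scaling their means after 1 Hz were at least 1.55-fold, 1.75-fold and 1.86-fold higher. Their brighter probes differed by −0.57, −0.20 and +0.20. For Pfdn1, a subunit of the chaperone prefoldin, the faint probe differed by +0.71 and the bright one by −0.44. The faint probes had been chosen for their small p, and the brighter ones had not.

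Lists with more genes higher than lower included ion channels and receptors, with small differences. The lists of sodium and calcium channels, GABA and glutamate receptors and axon guidance had median levels between 2 and 4. Of all probes at levels of 2 to 4, 57.5% were higher (median +0.04). Potassium channel genes, which set the resting potential and repolarize the neuron, were higher in 50 of 57 cases with a median of +0.18, beside 4292 of 6221 for all probes with a level of 0 to 2 (median +0.14). None had an unadjusted p under 0.05 beside 1.17% of all probes, and 2 lay above sham on every array beside 4.15%. With quantile normalization 45 of the 57 were higher and the median was +0.20, beside 18864 of 35694 over all probes (52.8%). Within series C the median was +0.05 with 34 of 57 higher, and within series D it was +0.21 with 41 higher. The array medians overlapped, with 1.71, 1.73 and 1.99 in sham and 1.92, 1.54 and 2.09 after 1 Hz. Kcnj11, the pore of the ATP-sensitive potassium channel, was at −2.10, −1.83 and −1.91 in sham and −1.22, −1.61 and −1.31 after 1 Hz, without overlap, a difference of +0.56 ± 0.33. Kcna2, a voltage-gated channel of axons, was at 2.74, 3.06 and 3.26 in sham and 3.50, 3.21 and 3.46 after 1 Hz (+0.37 ± 0.33), and the D array of sham lay above the C array of 1 Hz. Kcns2, a silent modulatory subunit, went against the list at −0.91 ± 0.56.

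Sodium and calcium channel genes were higher in 21 of 28 cases, with a median of +0.14, which was −0.08 within series C. Cacnb4, an auxiliary calcium channel subunit, differed by +0.67 ± 0.35 and Cacnb3, a related subunit, by −0.57 ± 0.39, the latter with the 1 Hz arrays at 6.49, 6.96 and 6.98 below sham at 7.35, 7.06 and 7.73. The sodium channel genes Scn1a and Scn2a differed by +0.28 ± 0.29 and +0.17 ± 0.21.

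Receptors for the inhibitory transmitter GABA were higher in 12 of 15 cases, with a median of +0.19, but that median was 0.00 within series C and +0.19 within series D. Gabra2, an alpha subunit, was at 4.10, 3.68 and 3.91 in sham and 4.17, 3.76 and 4.36 after 1 Hz, with overlap between the groups and a difference of +0.20 ± 0.37. Gabrg3, a gamma subunit, differed by +0.37 ± 0.37. Gabrb1, a beta subunit, was lower on every array, by −0.22 ± 0.18. Genes for GABA synthesis and of interneurons had a median of −0.12 with 4 of 15 higher. Gad1 and Gad2, which make GABA, differed by −0.12 ± 0.60 and +0.53 ± 0.69, and the interneuron peptide Sst by −0.56 ± 0.46, with 8.34, 7.94 and 8.71 in sham and 7.60, 7.72 and 7.96 after 1 Hz.

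Ionotropic glutamate receptors, the channels of fast excitation, had a median of +0.14 with 15 of 24 higher, and metabotropic ones, which act through G proteins, +0.25 with 5 of 8 higher. Grin2a, the NMDA receptor subunit of mature synapses, was at 1.28, 1.63 and 1.45 in sham and 2.72, 1.58 and 2.18 after 1 Hz. The A and D arrays were above sham and the C array was not, with a difference of +0.70 ± 0.44. The AMPA receptor genes Gria1 and Gria2 differed by +0.19 ± 0.30 and +0.18 ± 0.20. Grik5, a kainate receptor subunit, was at 8.12, 8.05 and 8.06 in sham and lower on every 1 Hz array, at 7.60, 7.86 and 7.44 (−0.44 ± 0.27).

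Synaptic proteins did not share a direction. Postsynaptic scaffolds had 16 of 22 genes lower (median −0.07), presynaptic release genes 21 of 33 higher (+0.05), and calcium/calmodulin kinases with their partners 9 of 19 higher (−0.03, and +0.07 after quantile normalization). Shank1, a master scaffold of the spine, differed by −0.46 ± 0.40. Vamp2, the vesicle SNARE of neurotransmitter release, was at 9.64, 9.38 and 10.002 in sham and 8.88, 9.22 and 9.29 after 1 Hz, lower on every array by −0.55 ± 0.31, but by −0.07 after quantile normalization. Syn1, a vesicle phosphoprotein, differed by −0.69 ± 0.46 and its relative Syn2 by +0.04 ± 0.22. Axon guidance genes had a median of +0.20 with 23 of 33 higher, and neurotrophins with their receptors +0.05 with 13 of 18.

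**Figure D4:**
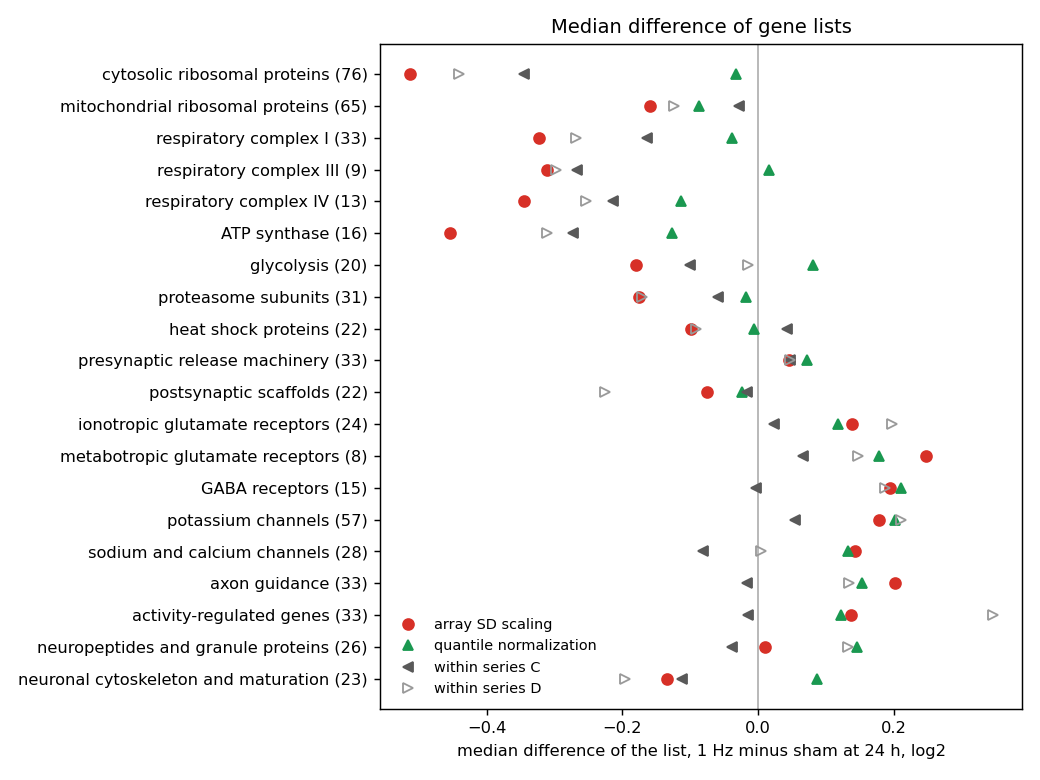
Median difference of 1 Hz minus sham at 24 h (horizontal axis, log2) for 20 gene lists, with the number of genes measured in each, under the main scaling, after quantile normalization and within series C and series D. Cytosolic ribosomal proteins had a median of −0.51 in the main scaling and −0.03 after quantile normalization, while potassium channels had +0.18 and +0.20.

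Genes of calcium signalling and inhibition that the study takes up for rTMS differed little here. Their SEs and intervals come from the fit over 55 arrays without a block, so the spread between series counts in them. Camk2g, a calcium-dependent kinase of plasticity, was at 7.43, 8.21 and 7.39 in sham and 8.02, 8.07 and 7.57 after 1 Hz, with overlap between the groups. The difference was +0.21 (95% interval −0.35 to 0.77), and a dimmer probe gave −0.31. Camk2b, the related kinase that binds actin, was at 6.40, 6.25 and 6.42 in sham and 6.43, 6.37 and 6.36 after 1 Hz, and differed by +0.03. A dimmer Camk2b probe gave −0.13. Grm3, a presynaptic and glial glutamate receptor, differed by +0.13, with 1.93, 2.36 and 2.63 in sham against 2.00, 2.46 and 2.84 after 1 Hz.

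Gabbr1, a subunit of the metabotropic GABA receptor, was at 6.66, 6.84 and 6.63 in sham and 6.80, 6.76 and 6.68 after 1 Hz, a difference of +0.04. Gabrd, the extrasynaptic delta subunit, differed by +0.08 ± 0.17, with 2.16, 2.17 and 2.24 in sham and 2.04, 2.35 and 2.43 after 1 Hz. Gabarapl1, which serves receptor traffic and autophagy, differed by −0.22 and by +0.18 after quantile normalization.

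Activity-regulated genes, which report recent firing, lay close together in arrays of the same series. Fos was at −0.23, −1.19 and 2.73 in sham and at 0.45, −0.76 and 3.21 after 1 Hz. The 2 arrays of series D were high and the 2 of series C low, whichever the treatment. Its difference was +0.54 with an interval of −2.18 to 3.25 in the fit without a block. The spread between series counts in that interval, and with series at each time as a block the difference was +0.56. Egr1, a zinc finger factor, had the same pattern, at 1.45, 1.12 and 4.57 in sham and 1.75, 1.28 and 4.28 after 1 Hz (+0.05). Arc, which removes AMPA receptors from synapses, was instead highest in replicate 1 of both groups, at 4.45, 1.76 and 2.89 in sham and 4.63, 2.00 and 3.05 after 1 Hz (+0.20).

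Npas4, a transcription factor switched on by calcium entry, was above background on 1 sham array and 2 arrays of 1 Hz and differed by +0.80, with −4.44, −4.61 and −1.62 in sham and −2.66, −4.89 and −0.72 after 1 Hz. Bdnf, the growth factor of activity-dependent plasticity, was at 2.11, 1.18 and 2.96 in sham and 2.23, 1.03 and 3.48 after 1 Hz (+0.16). Of 33 activity-regulated genes, 26 were higher, with a median of +0.14, which was −0.01 within series C, +0.35 within series D, and −0.20 when the brightest 1 Hz array (replicate 3) was left out. The median level of this list was 3.46, and 57.5% of all probes at levels of 2 to 4 were higher. The prohormone convertase gene Pcsk1 differed by −1.19 ± 0.61, with 1 sham array at 4.06 and the other two at 1.44 and 1.97, and 1 Hz at 0.86, 0.66 and 2.37.

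**Figure D5:**
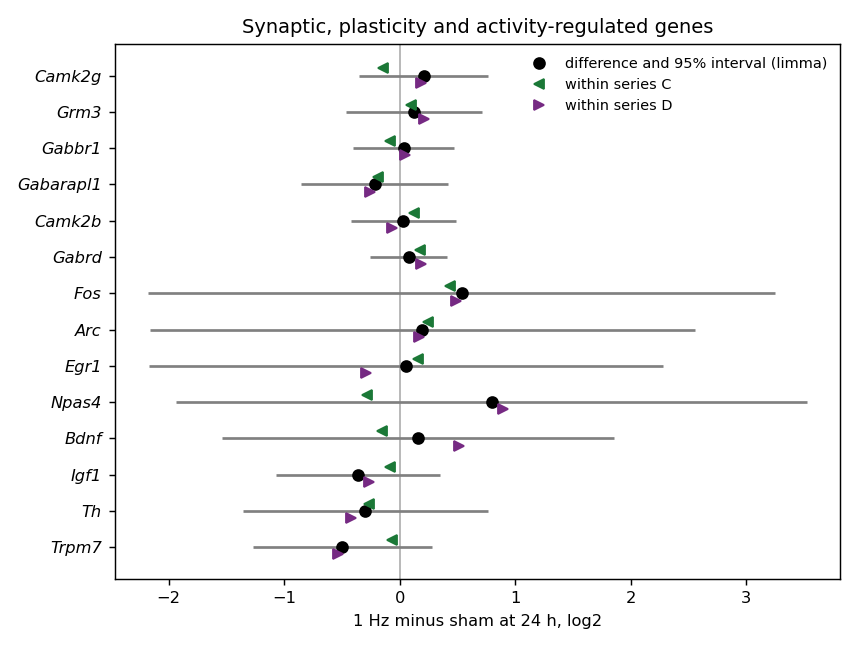
Difference of 1 Hz minus sham at 24 h (horizontal axis, log2) for 14 genes of synaptic signalling, plasticity and growth, with the 95% interval of the limma fit over 55 arrays without a block and the values within series C and series D. Every interval includes 0, and those of the activity-regulated genes are the widest, with Fos between −2.18 and 3.25.

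Growth and ion transport genes completed the set named for every comparison. Igf1, a growth factor, was at 3.73, 3.26 and 3.13 in sham and 2.999, 3.18 and 2.87 after 1 Hz (−0.36), and Th, the enzyme that starts dopamine synthesis, at 2.85, 2.77 and 3.21 and at 2.65, 2.50 and 2.79 (−0.30). The groups overlapped in each gene. Of 4 dimmer Igf1 probes, 3 were higher after 1 Hz, with differences of +0.34, +0.21 and +0.04, and the fourth gave −0.39. Trpm7, a divalent cation channel with a kinase domain, was at 6.58, 6.02 and 6.35 in sham and lower on every 1 Hz array, at 5.70, 5.95 and 5.81 (−0.50), while a second probe gave +0.43. The lists that the study had drawn up from these samples, which are no independent evidence of a direction, had 1 of 13 genes higher for learning and memory (median −0.16), 14 of 25 for GABA and glutamate (+0.03) and 6 of 12 for Alzheimer's disease (−0.01; +0.07 after quantile normalization).

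Glial genes separated the arrays by series. Mbp, a major protein of myelin, was at 8.01, 9.91 and 2.60 in sham and 6.49, 9.65 and 2.75 after 1 Hz, so that the C arrays of the 2 groups were high and the D arrays low. Myelin genes had median levels of 3.17, 4.87 and −0.34 in sham and 1.56, 5.17 and −0.26 after 1 Hz. Their median difference was −0.34, but +0.22 within series C and +0.05 within series D. Olig1, a transcription factor of the lineage, differed by −0.83 ± 0.79. Oligodendrocyte progenitor markers (−0.15), astrocyte markers (−0.19, and +0.09 after quantile normalization) and neuronal cytoskeleton genes (−0.13, and +0.09) had small medians, and microglia markers had +0.24, which was −0.54 within series D. The microglia list had median levels of −2.64, −2.37 and −0.24 in sham and −1.02, −1.74 and −0.73 after 1 Hz, and the progenitor list 5.25, 5.76 and 2.46 in sham and 3.97, 5.75 and 2.65 after 1 Hz. The part of these differing cell contents in the other results was not tested.

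Fitting the series as a block did not bring any probe past the threshold. The smallest adjusted p was 0.139, and 708 probes were higher (1.98%) and 711 lower (1.99%) at an unadjusted p under 0.05. Over the 35694 probes the difference within series C and that within series D had a correlation of 0.00732, and 50.9% of probes had the same sign in both, given as a description. For probes with a level over 0 the correlation was 0.0424. One probe without a gene symbol, A_44_P1143109, had the smallest p in the comparison. It was at −2.13, −2.31 and −2.08 in sham and 2.04, 0.48 and −1.91 after 1 Hz, so that the A and C arrays were far above sham and the D array was at the sham level. Its difference was +2.38 ± 0.45 with a limma adjusted p of 0.165, and without 1 Hz replicate 3 it was called (adjusted p = 1.28e-07).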

How the data were processed

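RNA of 56 samples was measured on 1-colour Agilent arrays. The scanner files deposited by the authors hold background-corrected intensity values from Feature Extraction 12.0.3.1, not normalized between arrays, and name build rn4. The series matrix deposited by the authors holds a score, the z-score of each probe within its array. From log10 signals the same score was recomputed to within 0.00500, the rounding of the file. Symbols came from a RefSeq table of GRCr8 through probe accessions (21109 of 45598 probes, 46.3%, 16581 genes), so no coordinates of probes are given.

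The log2 processed intensity of noncontrol spots, without spots marked as outliers, was averaged per probe (420 probes lacked a value), converted to z-scores within each array as in the study's methods, and multiplied by the median SD, 4.06. Probes well above background on fewer than 3 arrays (9484) were left out, leaving 35694, of which 17732 had a symbol (13888 genes). Group means of 55 arrays in 16 groups were fitted in R 4.3.3 with limma 3.58.1 (lmFit, eBayes; residual degrees of freedom 39, prior 2.82), and two-sided p-values were adjusted by Benjamini-Hochberg. 1 Hz at 2 h replicate 2, whose grid was badly placed (correlation with the mean of the others −0.0102), was left out. The script was tested on simulated data.

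Alternatives were 75th percentile scaling, quantile normalization, normexp with an offset of 50 followed by quantile normalization (on median signals and median backgrounds, as the files hold no mean signal), the deposited scores, other filters, series, slide and replicate blocks, leaving out each array, fewer or all arrays, and the criteria of the study's methods. Same-numbered arrays of the 2 groups deviated together (correlations of 0.311, 0.403 and 0.710), so the replicate numbers, which the sample titles give, were taken to pair the samples in the replicate block. The main fit had no block, so the SEs and p-values given from it are unpaired. Replicate 1 joins series A to series B, and its 0.311 stood beside 0.242 for 1 Hz replicate 2 with sham replicate 1.

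The naming rule took up to 12 probes with a symbol in each direction, with the smallest unadjusted p among probes well above background on all arrays of a group, without overlap of the groups and with the same sign in series C and D, plus members of the gene lists and 15 fixed genes, of which 14 are given here and 1 is not reported. The brightest probe stood for a gene in a list, and 92 of 311 list genes with several probes had probes that disagreed in sign. Of 1032 listed genes 951 were tested. The arrays compared, the lists and the rule were chosen with earlier results of these data known. "At least" folds set the brighter mean against the higher of the lowest signal well above background and the dim probe's own, per array. They hold for the group means under the main scaling and carry no sampling error. In the alternatives the differences of these probes could be smaller, down to +0.27 for Ern1. Promoters of 60 of 76 ribosomal and 66 of 75 respiratory genes were matched by symbol.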

Additional observations from a re-analysis of the deposited data

How the results depend on the processing

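In the comparison of 1 Hz with sham at 24 h, the count of probes with a limma adjusted p under 0.05 was 0, and was also 0 under the scalings, the blocks, the deposited scores and the smaller or larger sets of arrays. It was 1 without the filter on dim probes (S100a7l2, lower, adjusted p = 0.0234, above background on 2 of the 6 arrays) and lay between 0 and 3 when each array was left out, the 3 appearing without 1 Hz replicate 3, all higher and none with a symbol. The criteria of the study's methods, as run here, called 1 probe (Pcdha4, higher), and 18 when the ANOVA was run over the 6 arrays. The study reports far more changed genes for the same comparison, so its count was not reproduced, and the reason was not tested. For the change at 24 h against other times the count was 0, and between 0 and 2 when each array was left out, the 2 again without 1 Hz replicate 3. With the replicate block, which pairs the arrays by number, the count was 0 in both tests, with 1125 probes at an unadjusted p under 0.05 in place of 817, and 0 with 2332 when the block was fitted to the 6 arrays alone; the pairing changed no call. Unadjusted counts were 408 with 75th percentile scaling, 435 with quantile normalization, 453 with normexp, 2206 without the filter, 230 with all 56 arrays, 1419 with the series block, and between 319 and 1860 when each array was left out.

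Probes above sham on every array numbered 1480, and 647 with 75th percentile scaling, 958 with quantile normalization and 915 with normexp. Probes below sham on every array numbered 910, and 556 in the deposited scores. The cause was not tested.

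The 24 probes named by p kept their sign in the alternatives run, which follows in large part from the naming rule and is no sign of stability, since groups without overlap cannot turn when an array is left out. Of the 14 fixed genes, 11 changed direction in at least 1 alternative. Gabarapl1 was +0.18 with quantile normalization, +0.19 with normexp, +0.0855 with quantile normalization and series at each time, and +0.16 with quantile normalization and series. Egr1 was −0.0159 with 75th percentile scaling, −0.0177 with quantile normalization, −0.0407 with normexp, −0.14 with series at each time, −0.17 with quantile normalization and series at each time, and −0.43 with slide as a block. Camk2b was −0.0146 and Bdnf −0.0288 with the series block, Camk2g was −0.0129 with series at each time, and Gabrd was −0.00701 and Bdnf −0.0412 with quantile normalization and series. With the slide block Fos was −0.19, Npas4 −0.25 and Bdnf −0.0102. When each array was left out, Grm3 ranged from −0.0732 to 0.34, Gabbr1 from −0.00459 to 0.10, Camk2b from −0.0219 to 0.0624, Fos from −0.59 to 1.68, Arc from −0.50 to 0.91, Egr1 from −0.87 to 1.15, Npas4 from −0.22 to 1.87 and Bdnf from −0.46 to 0.77. Without 1 Hz replicate 3 alone, Grm3, Fos, Egr1, Npas4 and Bdnf were below 0. Blocks with quantile normalization and the ANOVA over 6 arrays were chosen after seeing the data.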

Other observations

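Stress and metabolic programs had small medians at 24 h after 1 Hz. Heat shock proteins, the chaperones of unfolded proteins, had a median difference of −0.10 (4 of 22 genes higher) and −0.01 after quantile normalization. Hspa8, the constitutive chaperone, was at 12.14, 11.42 and 11.07 in sham and 11.25, 11.05 and 10.37 after 1 Hz (−0.65 ± 0.45), but differed by −0.02 after quantile normalization, and the inducible Hspa1a by +0.28 ± 0.34. Genes of endoplasmic reticulum stress and the integrated stress response had −0.06 (11 of 29 higher) and +0.05 after quantile normalization. Atf3, a stress-induced factor, was at 1.31, 1.17 and 6.14 in sham and 2.23, 1.23 and 6.25 after 1 Hz, so that both arrays of series D were far above the rest. Hypoxia-responsive genes had +0.13 (15 of 21 higher), with −0.16 within series C and +0.46 within series D. Slc2a1, the main glucose transporter, was at 5.74, 6.14 and 5.90 in sham and 5.004, 6.20 and 7.09 after 1 Hz. Cholesterol synthesis genes had −0.07 (10 of 25 higher) and +0.08 after quantile normalization, circadian clock genes +0.04 (9 of 16) and −0.05, cold-inducible RNA-binding proteins +0.07 (4 of 7), and glucocorticoid and FoxO targets +0.03 (13 of 24). Mt1, a metal-binding protein of the last list, was at 9.76, 8.80 and 7.84 in sham and 6.82, 8.04 and 7.38 after 1 Hz (−1.38 ± 0.60), with overlap between the groups.

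Other cell type and secretory lists were read on the same arrays. Complement genes had a median of +0.22 (14 of 20 higher), but +0.04 within series C and −0.13 within series D. Cytokines and chemokines had +0.06 (15 of 23) and −0.06 after quantile normalization. Neuropeptides and granule proteins had +0.01 (13 of 26), and excitatory neuron identity genes +0.05 (10 of 16). Nrgn, a calmodulin-binding protein of forebrain neurons, was at 3.52, 4.40 and 5.42 in sham and 1.71, 4.26 and 4.20 after 1 Hz (−1.06 ± 0.86). Collagens and matrix genes had −0.04 (8 of 17 higher) and +0.02 after quantile normalization. Col1a1, a fibrillar collagen, was at 0.09, 5.03 and 7.01 in sham and 1.20, 4.67 and 6.70 after 1 Hz, which ordered the arrays by series and not by treatment. Cell cycle genes had −0.10 (11 of 29 higher). Mki67, a marker of dividing cells, was at 6.70, 5.82 and 3.53 in sham and 6.28, 5.85 and 3.45 after 1 Hz, lowest on both D arrays. Endothelial, mural and fibroblast markers had +0.02 (11 of 21 higher) and −0.12 after quantile normalization, and blood markers +0.20 (3 of 5) and −0.02. Choroid plexus and ependymal markers had −0.22 (1 of 8 higher), but −0.02 within series C and +0.15 within series D. None of the genes named here had an adjusted p under 0.05 in limma.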
